A study of Mus musculus with 24 samples.

Results

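m6A sites of mouse liver that lie in genes with a provisional symbol were examined: sites assigned to a single gene whose symbol is Gm followed by digits, or ends in Rik (member sites and member genes below). These were 1674 of 52315 sites in 714 genes in the comparison of ApoF knockout with wild type at 28 weeks, 1697 of 52025 sites in 715 genes in that comparison at 8 weeks, and 1699 of 51883 sites in 718 genes in the comparison of 28 with 8 weeks in wild type. The sites came from 790 genes in all, 332 with a Gm symbol and 458 with a Rik symbol. By the annotation of RefSeq, 494 of the 790 were long noncoding RNA (lncRNA) genes, 240 were protein coding, 53 were transcribed pseudogenes, 1 was another RNA and 2 were not matched. The RNA tables listed 3366 genes with such symbols among 25239.

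The groups were ApoF knockout (KO) at 28 weeks, wild type (WT) at 28 weeks, KO at 8 weeks and WT at 8 weeks, with 3 numbered C57BL/6 mice each; the labels used here state neither how the gene was disrupted nor the sex of the mice. From the liver RNA of each of the 12 mice, 1 library was made of the input and 1 of the fraction immunoprecipitated (IP) with an m6A antibody, giving 24 libraries. ApoF is an apolipoprotein made by the liver. The authors' tables give reads summed over the 3 libraries of a group and type, or a mean over both groups, so that no value of a single mouse can be given and the spread between mice cannot be seen at any site. The site tables hold a gene symbol and no position, so the sites are described by gene.

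N6-methyladenosine (m6A) is a methyl mark placed on RNA during transcription by a complex around METTL3 and METTL14. It is removed by FTO and ALKBH5, and is bound by reader proteins that act on the splicing, export, translation and decay of the RNA. In messenger RNA it lies mostly around the stop codon and in the 3′ untranslated region, and long noncoding RNAs carry it too. A Gm symbol marks a gene predicted from sequence and a Rik symbol one found as a cloned cDNA. The symbols cover antisense and intergenic noncoding RNAs, pseudogenes, and proteins whose mouse gene has not been renamed. Among the last were 4932438A13Rik, listed by RefSeq with the older names Kiaa1109 and Tweek, 1300017J02Rik, an inhibitor of carbonic anhydrase (Ica), and Gm4788, with the older name Cfhrc.

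The start sites of 4 lncRNA genes are shown because their RNA passed the test in 2 of the 4 RNA comparisons described below. For 1810008I18Rik and D130020L05Rik both comparisons used the 8-week KO group, and for 9030616G12Rik both used the 8-week WT group. Their calls are therefore not separate evidence. Each sequence runs 5′ to 3′ from 250 bases before to 50 bases after an annotated start, on the plus strand, from RefSeq on build GRCm38.p6. Capitals mark a match to TATAAA (the TATA box), to TTCNNNGAA (the core bound by STAT factors) or to CACGTG (an E-box), searched on both strands; TTTATA is TATAAA read from the other strand. These motifs occur in 13.6%, 8.30% and 7.15% of all 32851 windows of this kind, none of the 3 overlaps another in these windows, and a match is a description of the letters. A further annotated window of 1810008I18Rik and of Gm15401 held no match and is not shown. The window of 1810008I18Rik lies at chr7:65802787-65803086, 9030616G12Rik at chr10:128970947-128971246, D130020L05Rik at chr12:101082201-101082500 and Gm15401 at chr6:72629581-72629880.
1810008I18Rik: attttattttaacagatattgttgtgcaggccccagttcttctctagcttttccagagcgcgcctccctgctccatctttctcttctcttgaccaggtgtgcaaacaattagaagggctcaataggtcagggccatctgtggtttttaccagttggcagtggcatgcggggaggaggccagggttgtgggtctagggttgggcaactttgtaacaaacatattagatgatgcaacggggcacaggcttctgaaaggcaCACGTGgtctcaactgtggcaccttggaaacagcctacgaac
9030616G12Rik: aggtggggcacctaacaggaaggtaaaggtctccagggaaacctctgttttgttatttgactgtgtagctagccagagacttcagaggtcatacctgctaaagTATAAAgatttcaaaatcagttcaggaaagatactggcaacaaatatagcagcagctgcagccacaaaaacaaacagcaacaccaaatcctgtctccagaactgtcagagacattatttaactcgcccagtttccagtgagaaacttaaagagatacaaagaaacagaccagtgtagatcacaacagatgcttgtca
D130020L05Rik: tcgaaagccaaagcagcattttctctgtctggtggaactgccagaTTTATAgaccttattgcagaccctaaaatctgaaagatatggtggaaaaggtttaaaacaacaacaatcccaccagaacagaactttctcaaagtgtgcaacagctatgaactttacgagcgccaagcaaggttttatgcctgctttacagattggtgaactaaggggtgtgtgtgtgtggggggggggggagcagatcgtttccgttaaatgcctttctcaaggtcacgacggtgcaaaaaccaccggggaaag
Gm15401: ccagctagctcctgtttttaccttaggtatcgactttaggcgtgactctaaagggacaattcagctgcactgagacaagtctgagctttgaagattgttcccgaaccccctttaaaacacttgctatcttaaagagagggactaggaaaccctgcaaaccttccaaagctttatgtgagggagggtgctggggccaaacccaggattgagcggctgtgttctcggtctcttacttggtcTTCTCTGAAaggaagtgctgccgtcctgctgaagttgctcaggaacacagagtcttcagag

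Apof, the targeted gene, had 11839 mean normalized counts in 28-week KO livers and 23860.3 in WT, and 14414 against 23454 at 8 weeks; its transcript was thus lower but present in the KO (adjusted p = 2.5e-06 and 2.3e-08 per the authors' deposited tables). The labels used here do not state which part of the gene was deleted. At 8 weeks the libraries labelled KO and WT also differed in RNA of Y-linked genes: Ddx3y had 2338 mean normalized counts in the KO and 0.18 in the WT, Kdm5d 935 and 0.18, and Xist, the RNA that coats the inactive X chromosome, 10192 and 21017. At 28 weeks Ddx3y had 2189 in the KO and 2232 in the WT, and the WT age comparison had 2340 (28 weeks) and 0.17 (8 weeks). Genotype, or age in WT, therefore cannot be told apart from what these genes mark wherever the 8-week WT group enters. The sum over 6 markers of adipose tissue, muscle and pancreas was 7250 in 8-week KO and 12.5 in 8-week WT. In the KO it was mostly RNA of skeletal muscle, Acta1 (5657) and Ckm (1522), with Prss2 and Cpa1 at 0. Of these 6 markers 1 was tested and 0 passed, and whether their RNA came from 1 mouse cannot be seen. Markers of erythroid cells and neutrophils summed to 6794 in that KO group and 1393 in WT (1 of 5 tested higher). Lymphocyte markers summed to 67.8 and 166 (1 of 4 tested lower), and the liver's own hepatocyte markers to 6987933 and 5050853 (2 of 10 tested higher). The part of these cells in the results below was not tested. In bulk RNA, fewer cells of a type and less RNA per cell cannot be told apart.

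Member sites were shallow compared with the whole tables. The median site held 80 input reads in the 28-week KO and 74 in WT, against 154 and 151 over all sites, and 75 and 73 at 8 weeks, against 159 and 163. At least 50 reads in each of the 4 sums were found at 953 sites (56.9%) at 28 weeks and 939 (55.3%) at 8 weeks, against 73.8% and 73.9% of all sites. Over all sites the reads summed to 80819641 input reads in the 28-week KO and 77187809 in WT, and to 77744176 and 74003375 at 8 weeks. At 8 weeks 321 of the 715 genes had 1 site, and the mean was 2.37 sites a gene. Most sites lay in 4932438A13Rik, a long protein-coding gene, with 22 at 28 weeks and 26 at 8 weeks, and Gm1966 and 2900026A02Rik (Kiaa1671) followed with 14 and 13 at 28 weeks and 16 and 14 at 8 weeks.

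At about 3 in 4 member sites the ratio of IP to input lay above that of the summed reads. Each site's ratio of IP to input reads was scaled to the totals over all sites of its table, with 0.5 added to each count, so that a value of 1 is the ratio of the summed reads. The median was 1.25-fold in 28-week KO and 1.29-fold in WT livers, and 1.32-fold in 8-week KO and 1.28-fold in WT livers; over all sites it was 1.08-fold and 1.09-fold, and 1.11-fold and 1.07-fold. Among members, 74.4% and 74.0% of sites lay above 1 at 28 weeks in KO and WT, and 77.5% and 74.1% at 8 weeks, against 58.8%, 59.5%, 62.0% and 57.8% of all sites in the same groups. Depth moved with this: where each group had at least 50 input reads, the log2 medians of members were 0.12 in KO and 0.13 in WT at 28 weeks (957 sites), and 0.17 and 0.11 at 8 weeks (952 sites), against -0.01 and 0.00, and 0.03 and -0.03, over all sites. By kind of gene, the median at 28 weeks was log2 0.31 in KO and 0.35 in WT for 900 lncRNA sites, 0.32 and 0.38 for 663 protein-coding sites, and 0.44 and 0.50 for 103 sites of transcribed pseudogenes. These are descriptions, with no test.

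**Figure D1:**
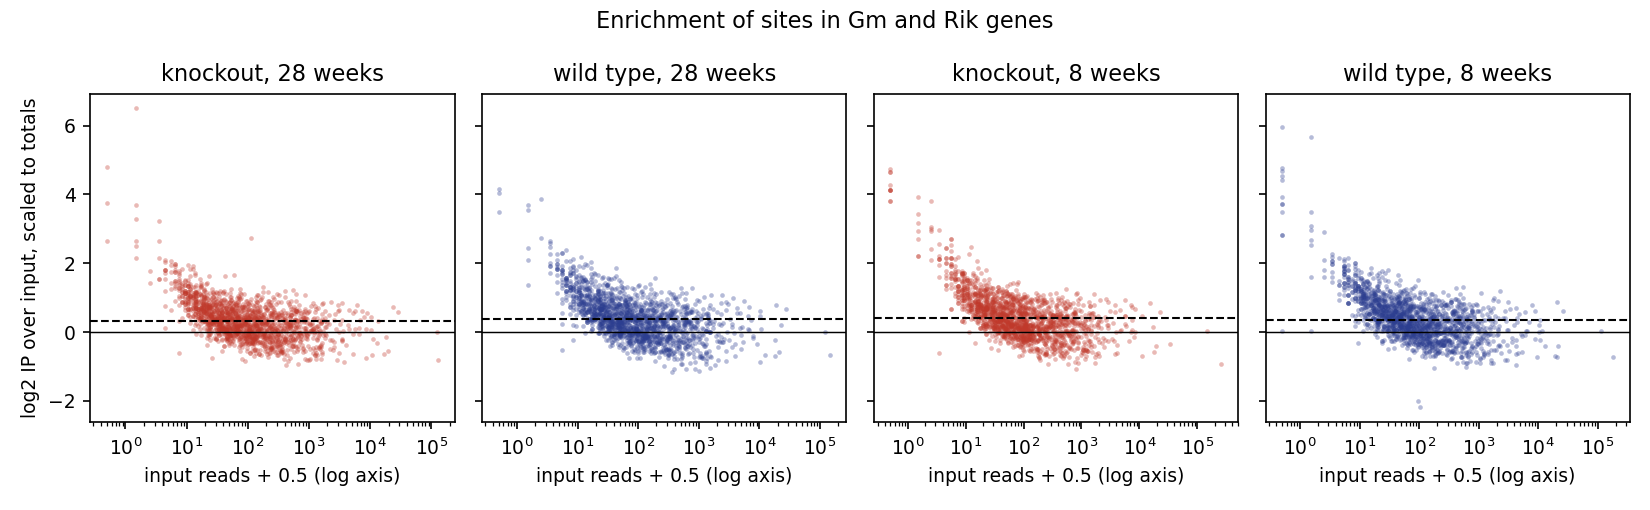
Each point is a member site, by its input reads plus 0.5 (log axis) and its log2 ratio of IP to input reads scaled to table totals, in 4 panels for KO and WT at 28 and 8 weeks. The dashed line is the median of member sites (log2 0.32, 0.37, 0.40 and 0.36), and the spread is widest at the sites with few input reads.

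Sites kept nearly the same order in all groups. At 372 member sites found in all 3 tables with at least 50 reads in each of the 8 sums, Pearson's r of the log2 ratio of IP to input was 0.89 between KO and WT at 28 weeks, 0.87 at 8 weeks and 0.88 between 28 and 8 weeks in WT; these are correlations across sites, which share their gene, length and base composition, and sites are not independent replicates. The SD across these sites was 0.49 log2 units in 28-week WT, against a median absolute difference between KO and WT of 0.13 at 28 weeks and 0.15 at 8 weeks. Gm16796, an lncRNA opposite Pfdn4, was among the most enriched, with 525 IP and 211 input reads in 28-week KO (2.22-fold) and 657 and 188 in WT (2.99-fold). At 8 weeks the same gene had 816 IP and 395 input reads in KO and 562 and 256 in WT. 4921524J17Rik, a protein-coding gene, had 1960 IP and 830 input reads in 8-week KO (2.18-fold) and 1360 and 553 in WT (2.50-fold). B130024G19Rik, opposite Nr2f2, had 141 IP and 53 input reads in 28-week KO and 166 and 52 in WT. All 3 thus showed an excess of IP reads in both genotypes.

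Sites within a gene also differed. 0610030E20Rik had 1492 IP and 619 input reads at 1 site in 28-week KO (2.15-fold) and 1415 and 502 in WT (2.41-fold), while another of its sites had 425 and 563 in KO (0.675-fold) and 405 and 532 in WT (0.652-fold). At 8 weeks its most enriched site stood at 2.36-fold in KO and 2.44-fold in WT, and another at 0.665-fold and 0.610-fold, so that the gene held sites above and below 1 in all 4 groups. Sites with IP below input lay in protein-coding Gm4737, with 2293 IP and 3726 input reads in 28-week KO and 1819 and 2811 in WT, and in Gm7030, with 596 and 935 in KO and 545 and 1019 in WT. Gm7030 lies among the H2-T genes of the major histocompatibility complex and carries the older name H2-t9, so it may share reads with its near copies and its values are uncertain.

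Many of the deepest member sites lay in lncRNA genes that overlap an abundant liver gene. A protein-coding gene overlapped 362 of the 790 genes in the RefSeq annotation, 218 on the opposite strand and 16 on the same strand where the strand is known. The libraries were stranded per the labels; they do not state whether reads were counted by strand, so reads of a gene and its antisense partner cannot be told apart. At 8 weeks Gm30505, opposite Ahsg (the plasma protein fetuin-A), held 446385 input reads at its sites in both genotypes together and 461 normalized counts over the same 6 input libraries in the RNA table. Gm10069, which overlaps Pzp (a plasma protease inhibitor), held 281145 against 681, Gm16537, which overlaps Gpd1 (glycerol-3-phosphate dehydrogenase), 54457 against 32.3, and Gm16090, which overlaps Ttr (transthyretin), 22976 against 149.6. C130074G19Rik and 1300017J02Rik, which overlap no protein-coding gene, held 67995 against 116952 and 56234 against 114617. Among genes with at least 10 mean normalized counts, site input exceeded the RNA counts in 97 of 223 members that overlap a protein-coding gene (43.5%), in 64 of 308 members that do not (20.8%), and in 888 of 11837 other genes (7.50%).

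**Figure D2:**
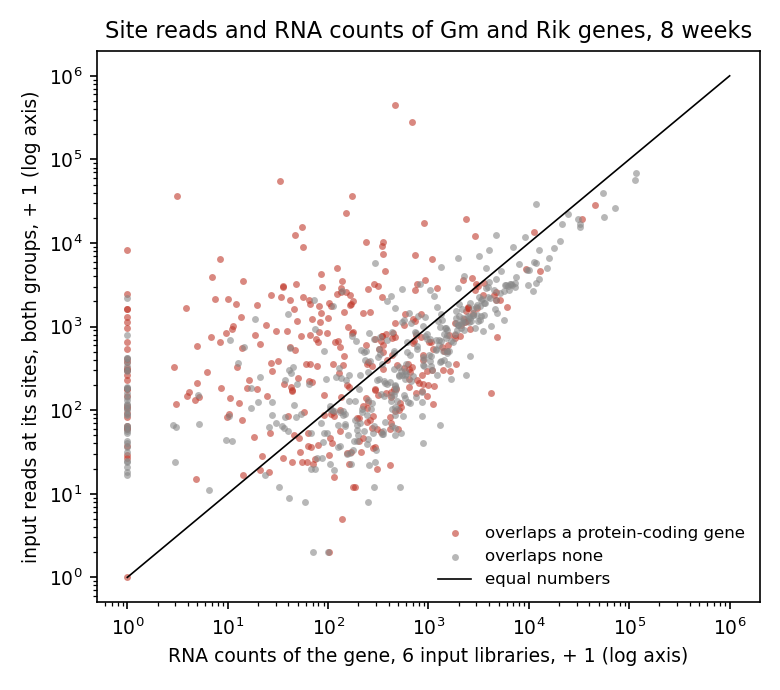
Each point is a member gene, by its RNA counts over 6 input libraries (x axis) and its input reads at sites summed over both genotypes (y axis), both at 8 weeks plus 1 on log axes; red marks a gene that overlaps a protein-coding gene and grey one that does not. The diagonal marks equality, and 97 red and 64 grey genes with at least 10 mean normalized counts lie above it.

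Where site reads exceeded RNA counts, the site input ratio lay closer to the RNA ratio of the overlapped gene than to the member's own. Across 96 pairs of a member and an overlapped gene of this kind, Pearson's r of the log2 ratio of site input (KO over WT, 8 weeks) was 0.88 with the overlapped gene's RNA ratio and 0.63 with the member's own. Across 75 pairs with fewer site reads than counts, it was 0.38 with the overlapped gene and 0.88 with the member itself. These are correlations across genes of the same libraries and are given without a test. In Gm15441, which overlaps Txnip (thioredoxin-interacting protein), the site input ratio was -1.78, Txnip RNA stood at -1.69 ± 0.31 (SE; adjusted p = 9.8e-06) and Gm15441 RNA at -6.33 per the authors' deposited table, a fitted value that gives no bound, since its mean in KO was near 0. Site results for overlapping genes are named with the neighbour below, and to which transcript the reads belong was not tested.

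The authors' site test calls a change where the ratio of IP to input differs between groups at an adjusted p under 0.05. Its p matches, within 1%, that of counting error of the summed reads alone, so it holds no spread between mice. SEs of site values below are counting errors. The deposited log2 also carries an offset for each site, with a median of 0.05 over members at 28 weeks, -0.18 at 8 weeks and -0.26 in the age comparison; the value from reads scaled to table totals, without the offset, is given where it differs by much.

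At 28 weeks 37 of 417 tested member sites passed in 34 genes, 9 higher and 28 lower in the KO; 9.18% of all tested sites passed (2.57% higher and 6.62% lower), so the share of members was near the background. Without the offset 32 passed, 15 higher and 17 lower, against 643 higher and 913 lower over all sites. The lowest was 1700034H15Rik, an lncRNA opposite the zinc transporter gene Slc30a1, with 176 IP and 174 input reads in KO against 216 and 140 in WT. It stood at -1.54 ± 0.22 (adjusted p = 2.2e-10) per the authors' deposited table. Without the offset it stood at -0.55, and its call was lost. Gm19395, opposite Cep85l, had 548 IP and 379 input reads in KO and 883 and 354 in WT, at -0.74 ± 0.13 (adjusted p = 1.2e-06) per the authors' deposited table and -0.73 without the offset. 4930413G21Rik, opposite Rbbp6, was lower at a pair of sites, at -1.22 (adjusted p = 2.4e-05) and -1.04 (adjusted p = 0.0351) per the authors' deposited table, and at -0.32 and -0.49 without the offset, where both calls were lost. The second of these calls was also lost with at least 50 reads asked of each sum, or with the adjustment over every site with a p. Of the lower sites named here, Gm19395 moved least with the offset.

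Among the sites higher in the 28-week KO, 2310011J03Rik, opposite Apc2, had 306 IP and 348 input reads in KO and 190 and 367 in WT, at 0.73 ± 0.17 (adjusted p = 5.6e-04) per the authors' deposited table. Gm4788, a relative of the complement factor H genes by its older name, had 342 IP and 268 input reads in KO and 255 and 317 in WT, at 0.72 ± 0.17 (adjusted p = 6.4e-04) per the authors' deposited table. D230017M19Rik, an lncRNA opposite Pecr (a peroxisomal enoyl-CoA reductase), had 1920 IP and 2461 input reads in KO and 1117 and 1843 in WT, at 0.42 ± 0.07 (adjusted p = 9.9e-08) per the authors' deposited table. Gm3776 and Gm10639 stood apart by their depth in the KO: Gm3776 had 2083 IP and 1556 input reads there against 589 and 666 in WT, at 0.66 ± 0.09 (adjusted p = 4.1e-10) per the authors' deposited table. Gm10639 had 2798 and 2132 in KO against 418 and 462 in WT, at 0.59 ± 0.11 (adjusted p = 1.1e-06) per the authors' deposited table. Both lie between Gsta1 and Gsta2, genes of glutathione S-transferases, in GRCm38.p6 and may share reads with such near copies, so both are uncertain. Gm10639 RNA averaged 330 normalized counts in 28-week KO and 79.4 in WT, at 2.06 (adjusted p = 0.491) per the authors' deposited table.

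At 8 weeks 68 of 564 tested member sites passed in 61 genes, 31 higher and 37 lower in the KO, against 10.9% of all tested sites (5.52% higher and 5.43% lower). Without the offset 59 passed, 45 higher and 14 lower, 41 of them shared and 0 of those in the opposite direction, against 2326 higher and 710 lower over all sites. The deposited change was at least 2-fold at 6 sites, all lower in the KO. The like count and direction over all sites are not given, so this is not read as a trait of members. Of the 6, 2 stayed at least 2-fold without the offset, in Gm30505 and Gm5141. A630072M18Rik (opposite Rsbn1l) and 4933408J17Rik (opposite Snrpf) stood at -1.17 and -1.03 per the authors' deposited table but at -0.44 and -0.27 without the offset, where their calls were lost. Gm30505 had 1149 IP and 1366 input reads in KO against 1177 and 681 in WT at 1 site, at -1.25 ± 0.09 (adjusted p = 9.2e-41) per the authors' deposited table, and its deepest site had 149908 and 261863 against 107997 and 182255, at -0.26 ± 0.0072 (adjusted p = 6.5e-281) per the authors' deposited table. Both sites lie in the gene opposite Ahsg, whose reads are described above. Gm5141, a protein-coding gene with no overlapping partner, had 227 IP and 325 input reads in KO and 265 and 188 in WT, at -1.15 ± 0.19 (adjusted p = 3.8e-08) per the authors' deposited table and -1.15 without the offset. 4930413G21Rik had 134 and 118 in KO and 149 and 127 in WT, nearly the same ratio. It stood at -1.54 ± 0.25 (adjusted p = 5.8e-08) per the authors' deposited table but at -0.18 without the offset, where its call was lost. 2810459M11Rik, with 279 IP and 378 input reads in KO and 228 and 433 in WT, turned its sign with the offset: -1.02 ± 0.16 (adjusted p = 3.6e-08) per the authors' deposited table and 0.35 without the offset. It was 1 of 7 called sites at 8 weeks, against 2 at 28 weeks and 0 in the age comparison, whose sign turned in this way.

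Of the sites higher in the 8-week KO, E130309D02Rik, a protein-coding gene, had 496 IP and 396 input reads in KO and 358 and 475 in WT, at 0.53 ± 0.14 (adjusted p = 0.00309) per the authors' deposited table. 1300017J02Rik, the inhibitor of carbonic anhydrase, had 16088 IP and 19613 input reads in KO and 12343 and 20739 in WT, at 0.28 ± 0.02 (adjusted p = 1.1e-32) per the authors' deposited table. A second site of the gene, with 7369 and 5752 in KO and 6258 and 6201 in WT, was also higher, at 0.13 per the authors' deposited table. Gm4788 had 16174 IP and 10893 input reads in KO and 13485 and 10852 in WT, at 0.16 ± 0.03 (adjusted p = 5.1e-08) per the authors' deposited table. The median called site at this age changed by 0.30 log2 units. Of sites in genes that overlap a protein-coding gene, 22 of 204 tested passed at 28 weeks and 32 of 265 at 8 weeks, and of the other sites 15 of 213 and 36 of 299; the difference was not tested.

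**Figure D3:**
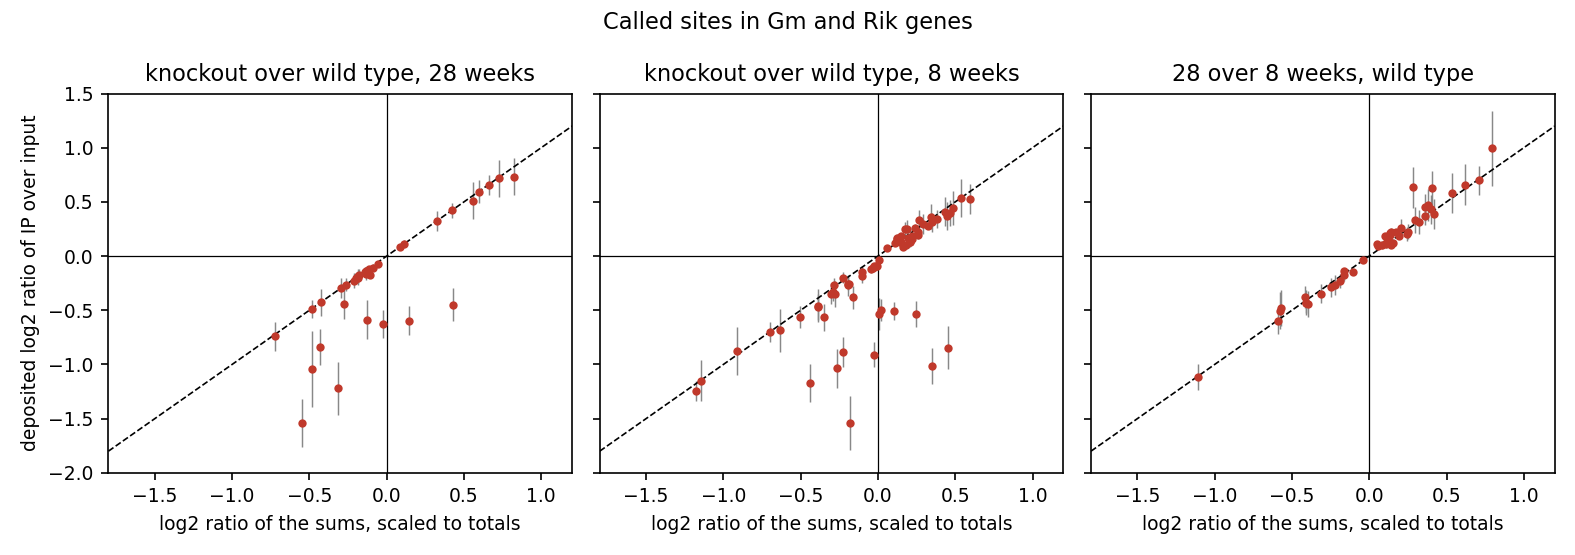
Called member sites at 28 weeks (37), 8 weeks (68) and in the WT age comparison (47): the deposited log2 ratio of IP over input between groups (y axis, bars ± counting SE) against the log2 ratio of reads scaled to table totals (x axis). The dashed line is equality; points far below it are the sites whose offset is large, such as 4930413G21Rik at -1.54 deposited and -0.18 scaled at 8 weeks.

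Positions are not in the tables, so a site was taken as the same at both ages only where the age table listed it with the same gene and with the WT sums of both genotype tables. Of 200 member sites matched in this way and tested at both ages, 16 passed at 28 weeks, 30 at 8 weeks and 7 at both ages (3.5%), against 267 of 6004 of all sites matched and tested at both (4.45%). Among the 7, sites lower in the KO at both ages lay in Gm16796 (-0.84 at 28 weeks and -0.88 at 8 weeks), Gm30505 (-0.14 and -0.26), Gm43915 (-0.23 and -0.19), 4931403E22Rik (-0.19 and -0.25) and A230083G16Rik (-0.08 and -0.11) per the authors' deposited tables. Without the offset Gm16796 stood at -0.43 and -0.22, with its call lost at both ages. A230083G16Rik then stood at -0.06 and -0.03 and Gm43915 at -0.21 and -0.11, with their 8-week calls lost. These 5 are lncRNA genes with a protein-coding neighbour on the opposite strand: Pfdn4, Ahsg, Mical3, Smarca2 and Ptms. Gm10639 went in opposite directions, at 0.59 at 28 weeks and -0.56 at 8 weeks per the authors' deposited tables, and so did Gm20319 (opposite Il1rap), at -0.12 and 0.18 per the same authors' deposited tables. At 8 weeks Gm10639 had 763 IP and 606 input reads in KO and 1197 and 736 in WT. By gene, without a match of sites, 19 member genes had a called site at both ages. Of these, 13 had a site lower in the KO at each age and 2 a site higher at each. A gene with several sites can enter through a different site at each age. These counts were not made over all genes, and 28-week calls leaned lower over all tested sites too (6.62% lower, 2.57% higher). They are therefore not read as a trait of members. The 13 held genes with no overlapping partner. Among them were protein-coding C130074G19Rik, with a site at -0.11 at 28 weeks and -0.09 at 8 weeks, and the pseudogene 6820431F20Rik, with a site at -0.20 at both ages, per the authors' deposited tables. Over the 372 deep sites, Pearson's r between the deposited log2 ratios of both ages was -0.01, as a description.

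With age in WT, 47 of 452 tested member sites passed in 44 genes, 31 higher and 16 lower at 28 weeks, against 11.3% of all tested sites (9.06% higher and 2.2% lower). Without the offset 42 passed, 24 higher and 18 lower, against 1317 higher of 1709 over all sites. C920021L13Rik, an lncRNA that overlaps the clock gene Ciart, had 370 IP and 264 input reads at 28 weeks and 783 and 1098 at 8 weeks, at 0.70 ± 0.13 (adjusted p = 8.1e-06) per the authors' deposited table. A830010M20Rik, a protein-coding gene, had 438 and 179 at 28 weeks and 250 and 188 at 8 weeks, at 0.66 per the authors' deposited table. Gm10639 was lowest, with 418 and 462 at 28 weeks and 1197 and 736 at 8 weeks, at -1.12 ± 0.12 (adjusted p = 5.9e-19) per the authors' deposited table. Wild-type groups are shared between this and the genotype comparisons, so that the same 418 and 462 reads enter here and at 28 weeks above. Ddx3y differed between these WT groups as given above, and age cannot be told apart from it.

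In the authors' DESeq2 table of input RNA, 0.257% of all tested genes passed between KO and WT at 28 weeks. Among tested member genes, 0 of 880 passed. The closest were lncRNA 0610005C13Rik, with 6311 mean normalized counts in KO and 4674 in WT (0.43 ± 0.12, adjusted p = 0.083), and Gm15401, with 264 and 117 (1.17 ± 0.33, adjusted p = 0.0955), per the authors' deposited table. At 8 weeks 19 of 983 passed, 9 higher and 10 lower in the KO and 12 at least 2-fold, against 4.98% of all tested genes (2.48% higher and 2.5% lower). Members were also measured less precisely: their median mean count at 8 weeks was 36.3 against 465 over all genes, and their median SE 0.59 against 0.26. The members' share below the background stood beside these lower counts.

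Among called genes with a base mean of at least 10, the highest at 8 weeks were Gm19619, an lncRNA, with 381 mean normalized counts in KO and 57.7 in WT (2.72 ± 0.40, adjusted p = 5.6e-09), and protein-coding 4930452B06Rik, with 486 and 77.5 (2.65 ± 0.40, adjusted p = 1.1e-08), per the authors' deposited table. 3110082I17Rik had 588 in KO and 228 in WT (1.37 ± 0.35, adjusted p = 0.00474), and lncRNA 1810008I18Rik had 3882 and 2064 (0.91 ± 0.27, adjusted p = 0.0213), per the authors' deposited table. 2200002D01Rik, known by the older name IMUP, had 717 and 453 (0.66 ± 0.16, adjusted p = 0.00246) and 2900026A02Rik 6529 and 4199 (0.64 ± 0.20, adjusted p = 0.0404) per the authors' deposited table. These genes were named as the highest called, so their common direction is set by that choice. How they relate to the Y-linked and muscle RNA in which the 8-week groups differed was not tested.

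The lowest of them in the 8-week KO was lncRNA D130020L05Rik, opposite Ppp4r3a, with 164 mean normalized counts in KO and 734 in WT (-2.16 ± 0.45, adjusted p = 1.7e-04) per the authors' deposited table. Gm19522 had 16.7 and 73.6 (-2.14 ± 0.68, adjusted p = 0.0376) and 9030616G12Rik 82.1 and 236 (-1.53 ± 0.46, adjusted p = 0.023) per the authors' deposited table. Gm2260, a transcribed pseudogene, had 673 in KO and 1330.3 in WT (-0.98 ± 0.21, adjusted p = 2.7e-04), and Gm4737 had 8132 and 15883 (-0.97 ± 0.31, adjusted p = 0.0389), per the authors' deposited table. Gm4737 was the most abundant member that fell. Gm5294 passed with 13.4 in KO and 0.18 in WT, where the fitted ratio is no bound.

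With age, most members that passed were higher at 28 weeks. In KO 18 of 907 tested members passed, 13 higher and 5 lower at 28 weeks, against 4.49% of all tested genes (2.03% and 2.46%); in WT 17 of 663 passed, 15 higher and 2 lower, against 4.24% (2.37% and 1.86%). Gm15401, an lncRNA opposite Tcf7l1 (a transcription factor of the Wnt pathway), passed in both: 279 mean normalized counts at 28 weeks and 14.2 at 8 weeks in KO (4.29 ± 0.50, adjusted p = 6.3e-15), and 123 and 37.4 in WT (1.72 ± 0.41, adjusted p = 0.00247), per the authors' deposited tables. The marker sum of adipose tissue, muscle and pancreas stood at 12.5 in 28-week KO and 6911 in 8-week KO (1 tested, 0 passed). Endothelial markers stood at 7659 and 10508 (3 of 5 lower, among them Stab2), and stellate cell markers at 5727 and 9928 (2 of 4 tested lower, Col1a1 and Reln). In WT the markers of erythroid cells and neutrophils stood at 4861 at 28 weeks and 1314 at 8 weeks (1 of 3 tested higher, Alas2), and those of cholangiocytes at 791 and 464 (1 of 4 higher, Sox9). The part of these cells in the age results was not tested. The promoter window of Gm15401 above holds the TTCNNNGAA match. Its deepest site in each table had 1351 IP and 1021 input reads in 28-week KO and 815 and 549 in 28-week WT, and 484 and 317 in 8-week KO and 542 and 366 in 8-week WT. Scaled to totals, the IP to input ratio of the deepest site was 1.18-fold in 28-week KO and 1.41-fold in 8-week KO. Without positions the deepest sites of both ages may differ, so these ratios are not read as a change with age. Whether their reads belong to Gm15401 or Tcf7l1 was not tested.

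In KO, Gm15343 had 288 mean normalized counts at 28 weeks and 74.2 at 8 weeks (1.96 ± 0.35, adjusted p = 7.4e-06), D130020L05Rik 452 and 156 (1.53 ± 0.42, adjusted p = 0.0121) and 1700052K11Rik 180 and 71.2 (1.34 ± 0.30, adjusted p = 7.1e-04) per the authors' deposited table. Among called genes with a base mean of at least 10, 4930452B06Rik fell furthest with age in the KO, with 36.2 at 28 weeks and 464 at 8 weeks (-3.68 ± 0.44, adjusted p = 6.0e-14), and 1810008I18Rik, whose promoter window holds the E-box, had 2411 and 3707 (-0.62 ± 0.17, adjusted p = 0.0111), per the authors' deposited table. In WT, Gm10319, a transcribed pseudogene that neighbours Mug-ps1 and Mug2, relatives of the murinoglobulin protease inhibitors, had 3370.1 at 28 weeks and 1529 at 8 weeks (1.14 ± 0.14, adjusted p = 5.6e-12) per the authors' deposited table. Gm10319 may share reads with those near copies and is uncertain, and the same holds for Gm4956 beside Gsta3, with 640 and 12.2 (5.71 ± 1.45, adjusted p = 0.00464) per the authors' deposited table. lncRNA Gm38416 had 590 at 28 weeks and 102 at 8 weeks (2.53 ± 0.50, adjusted p = 9.2e-05) per the authors' deposited table. The pair that fell in WT were A930033H14Rik, with 56.3 and 448 (-2.99 ± 0.94, adjusted p = 0.0384), and 9030616G12Rik, with 94.7 and 223 (-1.23 ± 0.40, adjusted p = 0.0472), per the authors' deposited table. The 9030616G12Rik call is lost where the adjustment runs over every gene with a p, and its 8-week WT mean enters both the age and the 8-week genotype comparison.

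**Figure D4:**
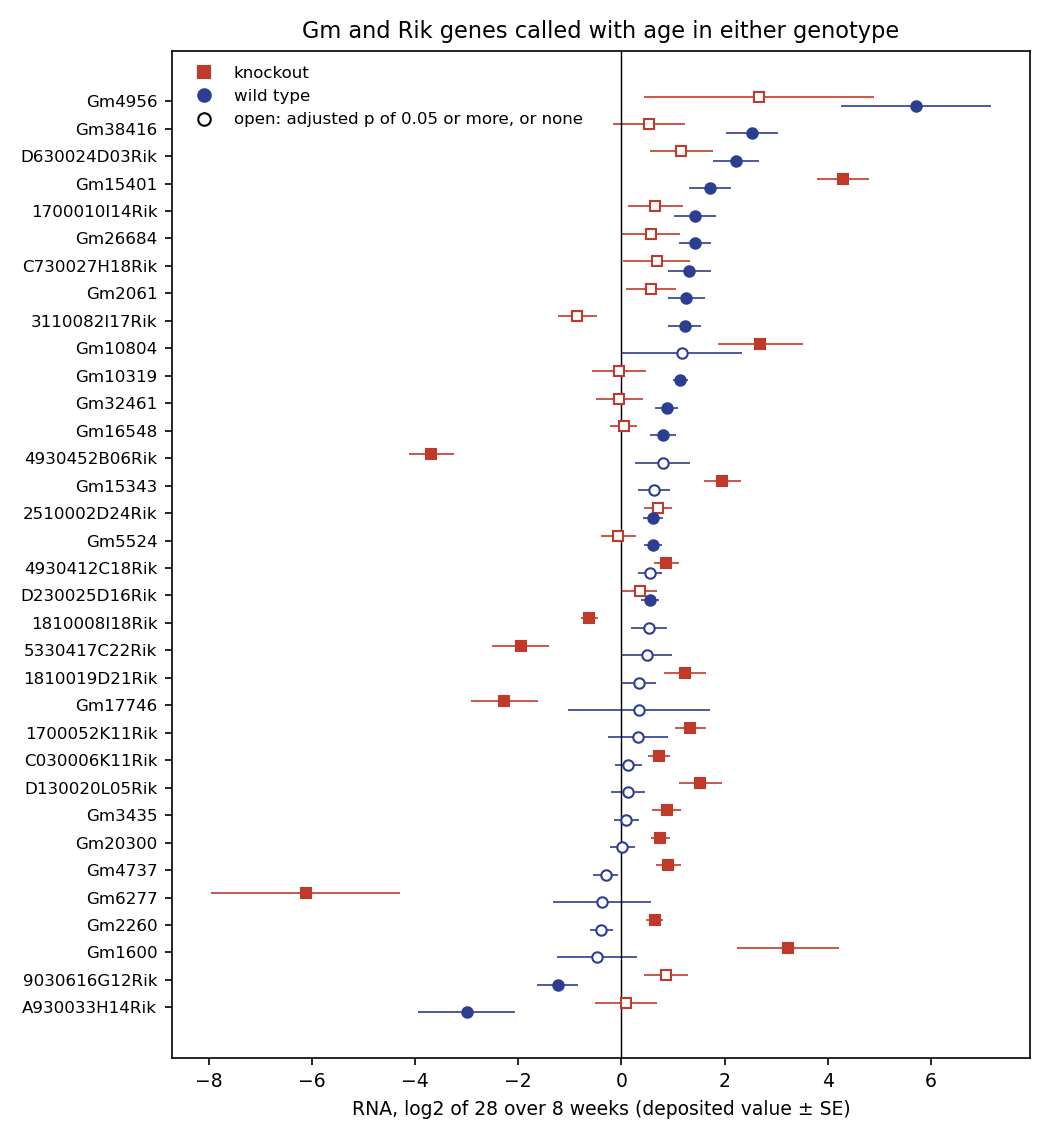
Log2 ratio of 28 over 8 weeks in RNA, ± SE, for 34 member genes called in KO (red squares) or WT (blue circles), in the deposited tables; open symbols did not pass. Gm15401 is filled in both, at 4.29 in KO and 1.72 in WT.

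The genotype difference itself differed between ages for 8 of 860 tested member genes, 3 with the larger value at 28 weeks and 5 at 8 weeks, against 1.58% of all tested genes (0.784% and 0.791%), by a Wald test on the difference of both deposited log2 ratios with Benjamini-Hochberg adjustment. 4930452B06Rik stood at -1.83 at 28 weeks and 2.65 at 8 weeks, and 3110082I17Rik at -0.71 and 1.37, KO over WT, per the authors' deposited tables. The differences, 28 weeks minus 8 weeks, were -4.48 ± 0.72 (adjusted p = 7.4e-07) and -2.08 ± 0.50 (adjusted p = 0.00644). Gm4737 and Gm2260 differed the other way, by 1.22 ± 0.34 (adjusted p = 0.0273) and 1.04 ± 0.29 (adjusted p = 0.0269). Y-linked RNA differed between genotypes at 8 weeks alone, so age cannot be told apart from it here.

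**Figure D5:**
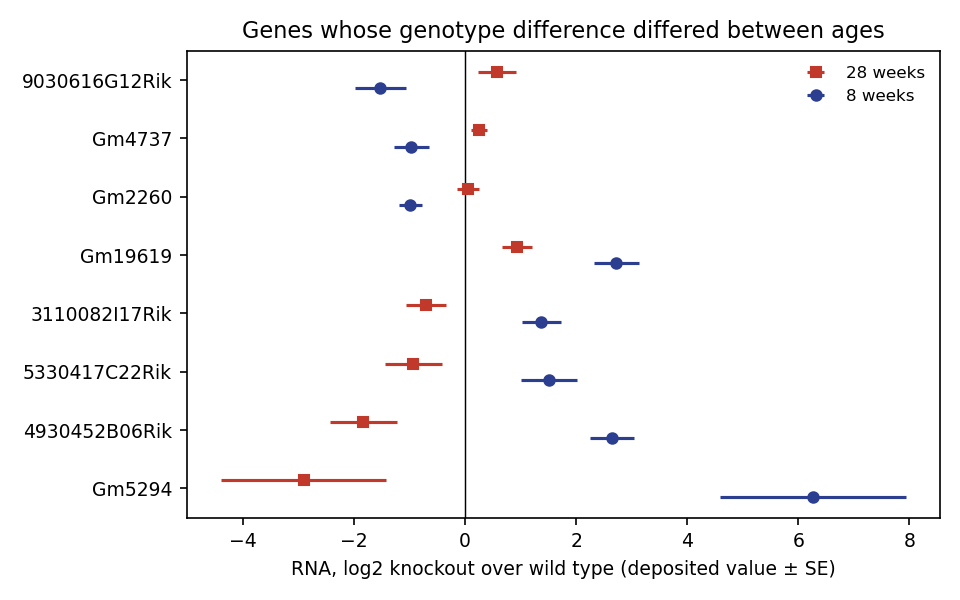
Log2 ratio of KO over WT in RNA, ± SE, at 28 weeks (red squares) and 8 weeks (blue circles) for the 8 member genes whose ratio differed between ages. 4930452B06Rik stands at -1.83 and 2.65, and none of the 28-week values passed its own test.

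A called site and a called RNA difference in the same comparison were found at 8 weeks in 3 of 56 genes with a called site and an RNA test (5.36%), against 7.61% over all such genes: D130020L05Rik, with a site at -0.51 (0.10 without the offset) and RNA at -2.16; 4921524J17Rik, with -0.27 and 0.56; and Gm4737, with sites at 0.22 and 0.13 and RNA at -0.97, per the authors' deposited tables. At 28 weeks it was 0 of 30, against 0.229% over all such genes, and in the WT age comparison 3 of 36 (8.33%), against 7.66%. Of those, Gm10319 had 31280 IP and 22890 input reads at 28 weeks and 11659 and 11514 at 8 weeks at its site, at 0.22 ± 0.02 with RNA at 1.14, and Gm16548, which overlaps the coagulation factor gene F5, stood at 0.23 with RNA at 0.82, per the authors' deposited tables. 2510002D24Rik was the third, with a site at 0.99 and RNA at 0.61 per the authors' deposited tables. The called 8-week site of D130020L05Rik, which lies opposite Ppp4r3a, had 1198 input reads in KO and 1215 in WT. The gene's RNA averaged 164 and 734 normalized counts. To which transcript these site reads belong was not tested.

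Of 24 genes that write, erase or read m6A, 23 were tested, and the RNA of 0 passed at 28 weeks and of 1 at 8 weeks: Igf2bp3, a reader known from fetal tissue, had 851 mean normalized counts in 8-week KO and 16.7 in WT (5.67 ± 0.35, adjusted p = 4.5e-54) per the authors' deposited table. With age 0 passed in WT, and in KO Igf2bp3 alone, which was lower at 28 weeks (-5.06 per the authors' deposited table). Of 30 lncRNAs with a name of their own, 28 were listed and 25 tested. At 8 weeks H19 (2472 mean normalized counts in KO and 22.0 in WT), Rian and Snhg11 were higher in the KO and Dleu2 lower, and at 28 weeks 0 passed. With age Snhg11 rose in WT. In KO Snhg11 and Dleu2 rose, and H19, Kcnq1ot1 and Airn fell.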

How the data were processed

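Input and m6A IP libraries of liver RNA from 12 mice (24 libraries) were compared. Per the labels, libraries were stranded and carried unique molecular identifiers; HISAT2, StringTie and DESeq were used per the submitters' processing notes, without versions, with genome build and site caller not stated in the labels used here. The authors summed the reads of a group's libraries to the count given for a site. The signal values of the RNA tables are the authors' mean normalized counts, from which group means were derived with the deposited ratio. The log2 values were deposited by the authors for sites and genes, and the p-value columns were deposited by them too, adjusted and unadjusted, in the RNA tables from DESeq2's Wald test. No values per library are at hand, so the edgeR fits planned for such values were replaced by the authors' tests, and a feature was called at an adjusted p under 0.05. The site table of age in the KO holds none of the symbols studied and is not used here.

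The numerator of each ratio was settled from the values. Wild-type sums were shared between site tables at 21900 and 22361 sites, and the ratio of site input correlated with the deposited RNA ratio at r of -0.76, -0.58 and -0.74, across genes. RNA signs were turned, and a positive ratio then stands for more in the KO or at 28 weeks. Counting SEs, ratios scaled to totals and the Wald test of the difference between ages were computed with Python 3.11.15, numpy 2.4.6, pandas 2.3.3 and scipy 1.17.1, and tested on simulated data; figures used matplotlib 3.10.9. Symbols were matched to RefSeq by name (778 of 790) or older name (10).

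The genes and lists were chosen with earlier results of these data known. The rule for names gave Apof, and per site table the 6 highest and 6 lowest called sites with at least 50 reads in each sum. It also gave the deepest sites, the most and least enriched, and the genes with most sites. Per RNA comparison it gave the 6 highest and 6 lowest called genes with a base mean of at least 10. Genes called for the difference between ages or for both site and RNA were added. Not every site or gene that the rule gave is printed above. The 28-week genes closest to the threshold, Gm15401's sites, Gm5294, sites called at both ages and the genes that overlap or neighbour a member were named after their values were seen. Lists covered m6A genes, named lncRNAs, Y-linked genes with Xist, and markers of cell types. P-values cover only the spread between these samples, or counting error at sites.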

Additional observations from a re-analysis of the deposited data

Results flagged for a closer look

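In 8 genes the RNA ratio of KO over WT differed between 28 and 8 weeks, by the Wald test of the difference with Benjamini-Hochberg adjustment. The differences, 28 weeks minus 8 weeks in log2 units, were -4.48 for 4930452B06Rik, -2.08 for 3110082I17Rik, -9.16 for Gm5294 (adjusted p = 0.00675), -1.79 for Gm19619 (adjusted p = 0.0197) and -2.44 for 5330417C22Rik (adjusted p = 0.0457). They were 2.10 for 9030616G12Rik (adjusted p = 0.0234), 1.04 for Gm2260 and 1.22 for Gm4737. Gm5294 averaged 1.77 normalized counts in KO and 13.2 in WT at 28 weeks, and 13.4 and 0.18 at 8 weeks, so its size is no bound. 5330417C22Rik had 17.2 in KO and 32.8 in WT at 28 weeks, and 74.0 and 26.0 at 8 weeks, and did not pass at 8 weeks alone. Ddx3y had 2189 in KO and 2232 in WT at 28 weeks but 2338 and 0.18 at 8 weeks, so that age and the groups' Y-linked RNA cannot be told apart in these 8 differences.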

How the results depend on the processing

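No paired analysis was possible because the tables hold sums and means of groups, without values per library; for the same reason no mouse could be left out and no other size factors could be tried. Of 82 alternative counts and medians, 40 stayed within 1.5 times the count or within the spread and 42 moved. Of 183 values of 74 named sites and genes, 156 kept direction and call, 26 lost the call and 1 reversed. Only the setting without the offset, run for sites alone, changes the ratio itself. The other settings reuse the deposited ratio, so they could change a call but not a direction, and the 1 reversal is not a measure of stability over all 183. At 28 weeks, the count of called RNA genes was 0 under each alternative run. Most of these alternatives count a subset of the called genes, so they could only give 0. Asking a base mean of at least 10, or no filter on low counts, could have given another count, and each gave 0.

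Called sites (main count 37 at 28 weeks, 68 at 8 weeks and 47 for age in WT) numbered 3, 6 and 1 at 2-fold, 16, 31 and 25 in Gm genes, 21, 37 and 22 in Rik genes, and 15, 36 and 26 in genes that overlap no protein-coding gene. At an adjusted p under 0.01 they were 23 at 28 weeks and 28 for age, and 59 at 28 weeks with sites that name several genes added. Called RNA genes (19 at 8 weeks, 17 for age in WT, 18 for age in KO and 8 for the difference between ages) numbered 8, 8, 6 and 3 at an adjusted p under 0.01, 7, 9, 10 and 4 among Gm genes, 12, 8, 8 and 4 among Rik genes, and 11, 11, 7 and 4 among genes with a site and no overlap. At 2-fold they were 12 at 8 weeks and 11 for age in KO, and 5 for the difference between ages among genes with a site. Apart from the 59, these counts fell by construction, as fewer features or larger changes were counted.

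The median log2 of IP over input fell to 0.22 in KO and 0.25 in WT at 28 weeks, and 0.25 and 0.26 at 8 weeks, when scaled to the median of all sites. At sites with at least 50 input reads it was 0.14 and 0.14, and 0.18 and 0.12. Without the offset per site, 2810459M11Rik at 8 weeks turned to 0.35; the cause was not tested. The call of 5330417C22Rik for the difference between ages is lost when the adjustment runs over all genes with a p. An adjusted p was given for 24.9% of member sites at 28 weeks and 33.2% at 8 weeks, against 35.8% and 49.5% of all sites; the reason was not tested.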

Other observations

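A930006I01Rik, an lncRNA gene with a mean normalized count of 0 in all 4 RNA tables, had a site with 849 IP and 114 input reads in 28-week KO (6.63-fold) and 238 and 96 in WT (2.12-fold). At 8 weeks its site had 214 and 75 in KO and 135 and 43 in WT. The authors' deposited table gives 1.65 (p = 3.2e-13) at 28 weeks without an adjusted p, so the site is among the uncalled ones; it was named after its values were seen. Whether the IP reads come from 1 mouse cannot be seen in the sums.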
